A study of Drosophila melanogaster with 14 samples.

Results

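bantam is a single hairpin precursor of Drosophila melanogaster whose strands give the mature arms dme-bantam-3p and dme-bantam-5p, called bantam-3p and bantam-5p here. Both were taken by name from a table of read counts for 466 miRNA arms, so the account covers 2 of 466. The counts come from 14 small RNA libraries of whole embryos, 2 at each of 7 labelled stages. The labels time stages 1 to 7 at 160, 300, 530, 645, 930, 1160 and 1300 min, without stating the point from which the minutes were counted. They give no strain, genotype, sex or treatment that differs between stages, and nothing in them tells whether paired libraries of 1 stage were independent collections. p-values therefore reflect only how far these libraries scatter, which may be technical.

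In flies bantam is known as a miRNA of growth and survival. It promotes tissue growth and holds back cell death by repressing the proapoptotic gene hid, and its transcription in growing tissue is raised by Yorkie, the coactivator that the Hippo pathway restrains. The 3p strand is the guide that is loaded into Argonaute and pairs with targets, and the 5p strand is the passenger that is mostly degraded, so the level of 5p reads beside 3p reads shows how much of the passenger was recovered.

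The annotation of dm6 places the hairpin, mir-ban (FBgn0262451), on the plus strand of chromosome 3L from 642208 to 642288, a length of 81 bp. The mature arm nearer the 5′ end lies at 642222 to 642244 and the other at 642259 to 642281. The hairpin lies in an exon of all 3 annotated transcripts of the noncoding gene lncRNA:CR43334 (628435 to 643900, plus strand), which RefSeq also lists as pri-bantam, the primary transcript. It lies in no protein-coding gene. The nearest other annotated miRNA hairpin on the arm, mir-282, is 2608734 bp away, so bantam is not part of a miRNA cluster. By name the table holds 2 bantam arms and no second copy of the hairpin.

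Total counts ran from 17462 to 72507 per library. The most abundant arm of the early libraries was miR-286-3p of the miR-309 cluster, which is switched on in the blastoderm and marks early embryos. It held between 57.3% and 65.3% of counts in each library of stages 1 to 3. The log2 levels of the 2 libraries of a stage correlated across the 85 tested arms with Pearson's r from 0.923 (stage 7) to 0.981 (stage 2). The 2 libraries of stage 7 resembled a library of stage 6 more than each other (r of 0.975 and 0.955). Both libraries of stage 6 likewise resembled stage 7 replicate 1 (0.974 and 0.975) more than each other (0.966), so stages 6 and 7 are not separated by these levels. Stage 4 had the next lowest value within a stage, 0.932. Fold changes of bantam that involve stage 4 or 7 are also given without stage 4 replicate 1 and stage 7 replicate 2.

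bantam-3p was a minor part of the early libraries and one of the leading miRNAs of the late ones. In RNA of whole embryos, more cells that hold a miRNA and more of it per cell cannot be told apart. Its share of all miRNA counts was 1.57% and 1.76% in the libraries of stage 1 (561 and 445 counts), 2.45% and 2.09% in stage 2, and 1.93% and 1.20% in stage 3. It was 6.01% and 7.95% in stage 4, 15.8% and 14.8% in stage 5, 18.3% and 17.9% in stage 6, and 20.4% and 11.7% in stage 7 (14800 and 7727 counts). The 8 libraries of stages 4 to 7 were all above the 6 libraries of stages 1 to 3, and stage 7 replicate 2 lay below every library of stages 5 and 6. For how many other arms the shares part in this way was not counted. Exact binomial intervals at 95% were narrow beside these differences, from 1.45% to 1.71% in stage 1 replicate 1 and from 11.5% to 11.95% in stage 7 replicate 2. Such intervals cover counting error only and treat each read as a separate draw. The SD of the share between the 2 libraries was 0.133 to 0.692 percentage points in stages 1, 2, 3, 5 and 6, 1.37 in stage 4 and 6.16 in stage 7.

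**Figure D1:**
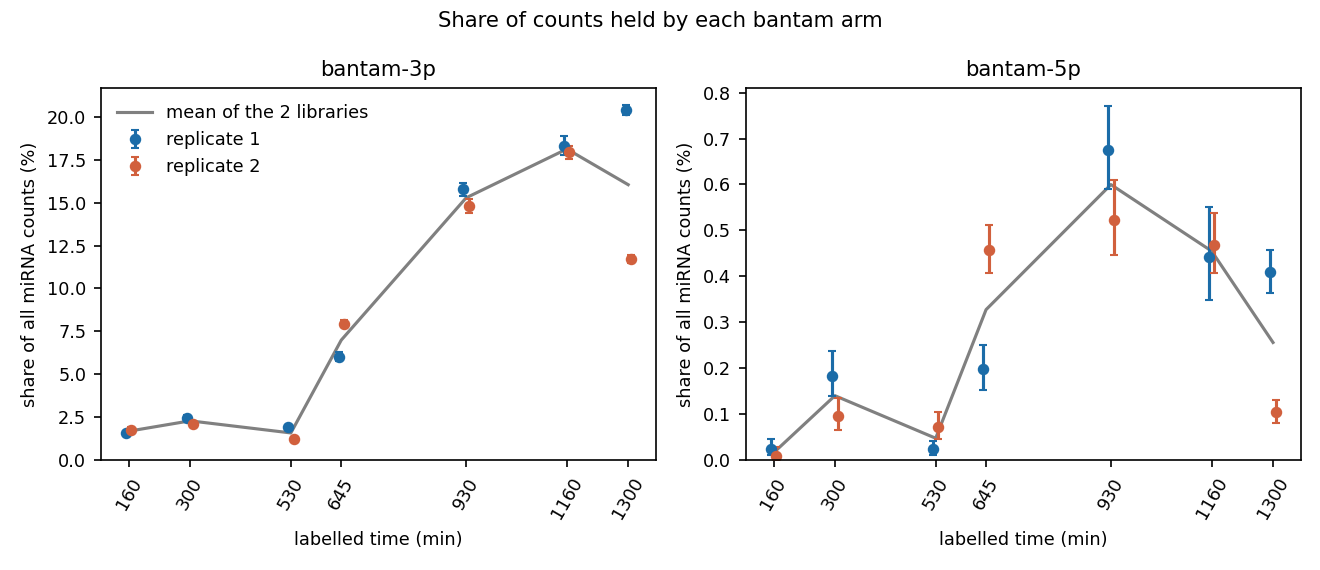
Share of all miRNA counts (%) held by bantam-3p and by bantam-5p in each of 14 libraries against the labelled time (min). Points are libraries, bars are exact 95% binomial intervals and the line joins the means of the 2 libraries of a stage. bantam-3p lies between 1.20% and 2.45% up to 530 min and between 11.7% and 20.4% from 930 min, while bantam-5p stays below 0.7% throughout.

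Shares of a library sum to a whole, so the fall of miR-286-3p raises the share of every other arm. Set against the other counts alone, with miR-286-3p left out of the total, bantam-3p held a mean of 4.69%, 5.35% and 3.76% in stages 1, 2 and 3, and of 10.5%, 18.8% and 20.5% in stages 4, 5 and 6. In stage 7 replicates 1 and 2 it held 22.5% and 15.1%. The change was smaller on that base, and it kept its direction. The ratio of bantam-3p to miR-286-3p reads within a library, which no scaling touches, was 0.0241 and 0.0277 in stage 1, 0.936 and 0.732 in stage 5, 1.81 and 1.42 in stage 6, and 2.23 and 0.518 in stage 7. bantam-3p passed miR-286-3p in both libraries of stage 6 and in stage 7 replicate 1, and not in stage 7 replicate 2, where miR-286-3p was 22.6% of counts against 9.16% in replicate 1.

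Fold changes were computed on levels scaled with TMM factors, which assume that most arms do not change and ranged from 0.595 to 1.57. The factors split by stage, from 0.595 to 0.806 in stages 1 to 3 and from 1.16 to 1.57 in stages 4 to 7. edgeR called 68 of the 85 tested arms between stages 1 to 3 and stages 5 to 7, so that assumption is in doubt. On this scale bantam-3p stood at 26504 and 25434 CPM (counts scaled to a common library size) in stage 1, 34772 and 25971 in stage 2, and 30753 and 16873 in stage 3. It stood at 52238 and 61873 CPM in stage 4, 113489 and 94941 in stage 5, 138538 and 134359 in stage 6, and 148748 and 100056 in stage 7. Ordered by mean CPM, stage 6 was highest, followed by stages 7, 5, 4, 2, 1 and 3. The libraries of neighbours in this order overlapped for stages 6 and 7, 7 and 5, 2 and 1, and 1 and 3, and did not overlap for stages 5 and 4 or 4 and 2. How many other arms part between these stages was not counted.

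Each arm was first tested for any difference over the series. By the edgeR quasi-likelihood F-test bantam-3p varied over the 7 stages (adjusted p = 8.91e-07), and so did bantam-5p (adjusted p = 0.00133). This was the common outcome, since 81.2% of the 85 tested arms passed. Adjusted p-values follow Benjamini and Hochberg over the 85 arms, with a threshold of 0.05.

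Late embryos (6 libraries, stages 5 to 7) were then compared with early embryos (6 libraries, stages 1 to 3). bantam-3p rose from 26718 ± 6006 CPM (SD, n = 6) to 121688 ± 22033 CPM, a log2 fold change of 2.19 ± 0.194 (SE; edgeR adjusted p = 5.58e-09) or 4.55-fold. bantam-5p rose from 941 ± 911 CPM to 3153 ± 1290.0 CPM, and its fitted log2 fold change was 2.13 ± 0.401 (edgeR adjusted p = 7.24e-05) or 4.37-fold. The fit averages the stages on the log scale, so its fold change can differ from the ratio of these means. For bantam-5p the fitted value was larger than that ratio, and stage 1, its lowest stage, weighs in it as much as stage 2 or 3. Among the 85 arms 50.6% were called higher late, and the median log2 fold change of all of them was 0.86. The late libraries of bantam-3p lay wholly above its early ones, as in 38.8% of tested arms, whereas those of bantam-5p overlapped, with a late minimum of 881 CPM in stage 7 replicate 2 and an early maximum of 2598 CPM in stage 2 replicate 1. The size of the rise varied with the scaling. With DESeq2 size factors the log2 fold changes of the 85 arms shifted by a median of 0.45, and the values were 2.67 for bantam-3p and 2.65 for bantam-5p. Library size alone shifted them by a median of 0.97 and gave 3.19 and 3.13. A restriction to arms averaging 50 or more counts left 39 arms, shifted them by a median of -0.73 and gave 1.49 and 1.43. Without stage 4 replicate 1 and stage 7 replicate 2 the values were 2.10 and 2.18, still called. From stage 1 to stage 7 the log2 fold change was 2.26 ± 0.337 for bantam-3p (edgeR adjusted p = 1.34e-05) and 2.92 ± 0.764 for bantam-5p (adjusted p = 0.00224), beside 50.6% of arms called higher. Without stage 4 replicate 1 and stage 7 replicate 2 these values were 2.14 and 3.16, both called. For bantam-5p, leaving out stage 1 replicate 1 gave 4.05 and leaving out stage 7 replicate 2 gave 3.53, and its call ended without stage 7 replicate 1 (1.78, adjusted p = 0.0510) and among arms averaging 50 or more counts (1.94, adjusted p = 0.0663).

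The steps between neighbouring stages place the rise of bantam-3p in the middle of the series. From stage 3 to stage 4 it rose by 1.26 ± 0.327 on the log2 scale (edgeR adjusted p = 0.00534), or 2.40-fold, a step in which 18.8% of arms were called higher. Without stage 3 replicate 2, the early library with the lowest level, the value was 0.89 (adjusted p = 0.0853), and among arms averaging 50 or more counts it was 0.78 (adjusted p = 0.120). Without stage 4 replicate 1 and stage 7 replicate 2 it was 1.32 (adjusted p = 0.000895). The next step, stage 4 to stage 5, had a value of 0.87 ± 0.324 that did not pass (edgeR adjusted p = 0.0776), and 5.88% of arms were called higher in it. It did pass with DESeq2 (1.14, adjusted p = 0.0182), with DESeq2 size factors in edgeR (1.14, adjusted p = 0.0436), with library size alone (1.13, adjusted p = 0.0197), without a filter (1.01, adjusted p = 0.0446) and without either library of stage 7 (0.87 each time, adjusted p = 0.0215 and 0.0223). Without both stage 4 replicate 1 and stage 7 replicate 2 it was 0.82 and did not pass (adjusted p = 0.0966).

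No other step was called for bantam-3p. The values were 0.23 ± 0.324 from stage 1 to 2 (edgeR adjusted p = 0.737), which turned to -0.22 with DESeq2 size factors, and -0.35 ± 0.323 from stage 2 to 3 (adjusted p = 0.748), which was 0.018 without stage 3 replicate 2. They were 0.39 ± 0.322 from stage 5 to 6 (adjusted p = 0.684) and -0.13 ± 0.321 from stage 6 to 7 (adjusted p = 0.863), which was 0.12 without stage 7 replicate 2 and 0.097 when stage 4 replicate 1 was dropped too. edgeR called 0% of arms from stage 2 to 3, 5 to 6 and 6 to 7, where 14, 4 and 1 arms had an unadjusted p below the threshold and DESeq2 called 2, 0 and 0. From stage 1 to 2 edgeR called 15 of 85 arms and DESeq2 called 21.

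The rank among all arms does not depend on the scaling. bantam-3p ranked 7 in both libraries of stage 1, 5 and 7 in stage 2, and 7 and 13 in stage 3. It ranked 5 and 4 in stage 4, 2 in both libraries of stage 5, 1 in both of stage 6, and 1 and 3 in stage 7. The late libraries thus hold ranks from 1 to 3 and the early ones ranks from 5 to 13. The number of other arms whose ranks part in this way was not counted. Summing both arms of each hairpin moved 3 of the ranks, each by 1 place, to 6 in stage 2 replicate 2, 12 in stage 3 replicate 2 and 4 in stage 4 replicate 1.

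**Figure D2:**
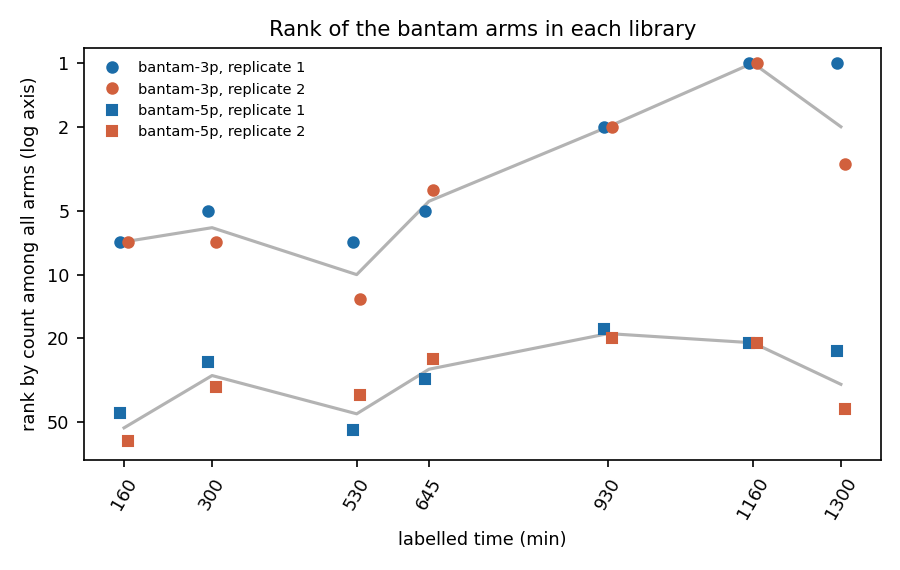
Rank by count of bantam-3p (circles) and bantam-5p (squares) among all 466 arms in each library, against the labelled time (min). The rank axis is logarithmic with rank 1 at the top, and grey lines join the means of the 2 libraries. bantam-3p reaches rank 1 in 3 libraries, and bantam-5p comes no higher than rank 18.

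The arms above bantam-3p were of a few kinds. In stage 1 these were, by mean share, miR-286-3p, miR-92b-3p, miR-311-3p, miR-312-3p, miR-10-5p and miR-5-5p, and each held a larger share than bantam-3p in both libraries. miR-286 and miR-5 belong to the miR-309 cluster and miR-311 and miR-312 to the miR-310 cluster, while miR-10 lies in the Antennapedia complex of Hox genes. The arm directly below was miR-6-3p (1.43% ± 0.0292 against 1.67% ± 0.133, no overlap). In stage 2 the arms above were miR-286-3p, miR-92b-3p, miR-10-5p, miR-312-3p and miR-263a-5p, and stage 3 added miR-5-5p. In stage 2 miR-263a-5p stood directly above at 2.27% ± 0.150 against 2.27% ± 0.260 and miR-184-3p directly below at 2.05% ± 0.0639, and both overlapped bantam-3p. In stage 3 miR-5-5p stood directly above (2.72% ± 0.394, no overlap) and miR-11-3p below (1.55% ± 0.312 against 1.56% ± 0.516, overlapping).

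From stage 4 the list above bantam-3p shortened. In stage 4 it comprised miR-286-3p, miR-10-5p and miR-263a-5p, a miRNA that protects sensory bristle cells, and the last overlapped bantam-3p (7.15% ± 0.240 against 6.98% ± 1.37). In stage 5 miR-286-3p alone was above (18.5% ± 2.38 against 15.3% ± 0.692, no overlap). In stage 6 no arm was above bantam-3p, and miR-8-3p, a miRNA of epithelia and body growth, came next (14.9% ± 0.0122, no overlap). In stage 7 the means of bantam-3p and miR-286-3p were 16.1% ± 6.16 and 15.9% ± 9.49, with overlap, so their order in that stage is not resolved. These lists go by mean share, and single libraries can differ. In stage 7 replicate 2, where bantam-3p ranked 3, miR-263a-5p also stood above it (log2 CPM of 16.64 against 16.61).

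bantam-5p was far rarer and more variable. It had 8 and 2 counts in stage 1, 60 and 32 in stage 2, 11 and 25 in stage 3, 67 and 302 in stage 4, 220 and 164 in stage 5, 77 and 204 in stage 6, and 296 and 68 in stage 7. As shares of the library the means of stages 1, 2 and 3 were 0.0152% ± 0.0103 (SD, n = 2), 0.140% ± 0.0620 and 0.0469% ± 0.0340. Those of stages 4 to 7 were 0.327% ± 0.184, 0.600% ± 0.108, 0.455% ± 0.0195 and 0.256% ± 0.216. The highest stage was 5, earlier than the stage 6 of bantam-3p, but the step between stages 5 and 6 was not called for either arm, and the libraries of these stages, apart as shares of counts, overlapped on the TMM scale. At 2 counts, the interval of stage 1 replicate 2 ran from 0.000958% to 0.0286%, so its level is known only within a wide range.

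On the TMM scale bantam-5p stood at 378 and 114 CPM in stage 1, 2598 and 1192 in stage 2, and 364 and 997 in stage 3. It stood at 1714 and 3556 in stage 4, 4863 and 3358 in stage 5, 3330.5 and 3509 in stage 6, and 2975 and 881 in stage 7. By mean CPM the order of stages was 5, 6, 4, 7, 2, 3 and 1. Among neighbours in this order the libraries overlapped in all pairs but stages 2 and 3. How many other arms part between stages 2 and 3 was not counted, and that step was not called for bantam-5p. The rank of bantam-5p was 45 and 61 in stage 1, 26 and 34 in stage 2, 54 and 37 in stage 3, and 31 and 25 in stage 4. It was 18 and 20 in stage 5, 21 in both libraries of stage 6, and 23 and 43 in stage 7.

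For bantam-5p 2 steps were called, from stage 1 to 2 and from stage 3 to 4. From stage 1 to stage 2 it rose by 2.88 ± 0.777 on the log2 scale (edgeR adjusted p = 0.0125), where 15.3% of arms were called higher. The call rests on few counts. Its value was 4.01 without stage 1 replicate 1, and it ended without stage 1 replicate 2 (2.31, adjusted p = 0.162), without stage 2 replicate 1 (2.22, adjusted p = 0.135) and with DESeq2 size factors (2.45, adjusted p = 0.0630). From stage 2 to 3 the value was -1.49 ± 0.679 (adjusted p = 0.251), which passed with the 2 stages alone (-1.53, adjusted p = 0.0167) and without stage 4 replicate 1 and stage 7 replicate 2 (-1.75, adjusted p = 0.0408). From stage 3 to 4 it rose by 1.97 ± 0.671 (edgeR adjusted p = 0.0297), and by 2.85 without stage 3 replicate 2. That call ended without stage 3 replicate 1 (1.41, adjusted p = 0.235), without stage 4 replicate 2 (1.35, adjusted p = 0.221), with the 2 stages alone (1.97, adjusted p = 0.0683) or among arms averaging 50 or more counts (1.42, adjusted p = 0.152), and it held without stage 4 replicate 1 and stage 7 replicate 2 (2.38, adjusted p = 0.00185). The later steps were 0.63 ± 0.615 (adjusted p = 0.456), -0.26 ± 0.615 (adjusted p = 0.938) and -0.82 ± 0.619 (adjusted p = 0.863), and none passed. Single libraries moved all 3 of them by over 1.5 times. The step from stage 4 to 5 was 0.27 without stage 4 replicate 1, 1.26 when replicate 2 of that stage was left out, and 0.34 without stage 5 replicate 1. Leaving out the first library of stage 5 turned the step from stage 5 to 6 to 0.027, and leaving out the other gave -0.51. The step from stage 6 to 7 was -1.95 when stage 7 replicate 1 was left out, and -0.20 when replicate 2 was. Without both stage 4 replicate 1 and stage 7 replicate 2 the steps into and out of these stages were 0.27 and -0.22. The difference between the arms in any single step was not tested.

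Both arms come from the same precursor, so the share of 5p among bantam reads can be compared without any scaling of libraries. Over all 14 libraries there were 54467 reads of bantam-3p and 1536 of bantam-5p, a 5p share of 2.74% (exact 95% interval 2.61% to 2.88%) or 35.5 3p reads for each 5p read. The 3p arm was the more abundant in every library. The 5p share was 1.41% and 0.447% in stage 1, 6.95% and 4.39% in stage 2, 1.17% and 5.58% in stage 3, and 3.18% and 5.43% in stage 4. It was 4.11% and 3.42% in stage 5, 2.35% and 2.55% in stage 6, and 1.96% and 0.872% in stage 7. The lowest share was in stage 1 replicate 2 and the highest in stage 2 replicate 1, neighbouring stages at the start of the series. As ratios of 3p to 5p reads these extremes were 222.5 (interval 61.2 to 1843) and 13.4 (interval 10.3 to 17.7). From stage 5 to 7 the share was lower at each stage, without overlap of libraries, with pooled values of 3.78% (interval 3.42% to 4.17%), 2.49% (2.21% to 2.79%) and 1.59% (1.43% to 1.76%). That sequence was noticed in the values and was not tested, and how many other hairpins show one was not counted. The pooled intervals leave out the spread between libraries.

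**Figure D3:**
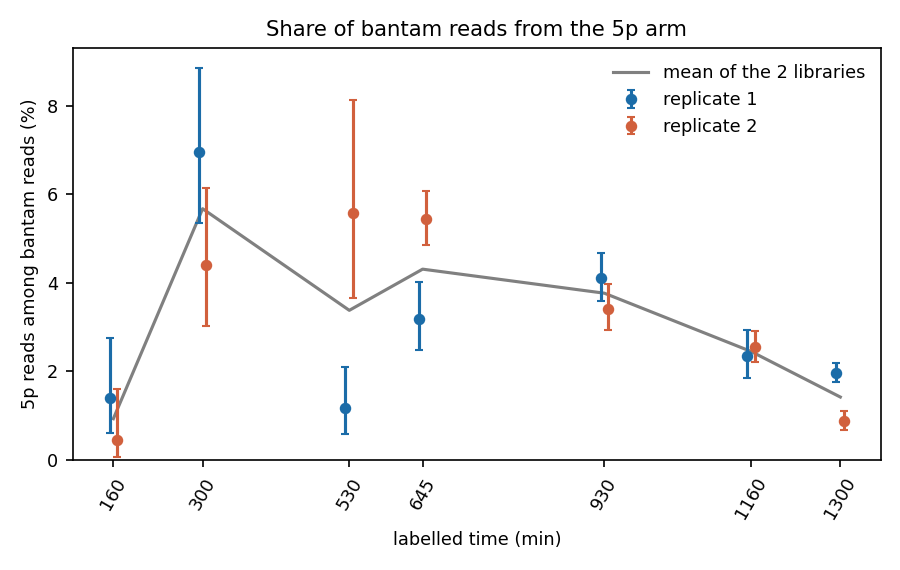
Percentage of bantam reads that came from the 5p arm in each library, against the labelled time (min). Points are libraries, bars are exact 95% binomial intervals and the line joins the means of the 2 libraries of a stage. The share spans 0.447% to 6.95%, and the libraries of stages 3, 4 and 7 lie further apart than their intervals.

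The spread between libraries of a stage was larger than counting error in several stages. Fisher's exact test on the reads of the 2 libraries, which compares those libraries and not conditions, gave adjusted p-values of 1.64e-05, 4.88e-05 and 4.78e-10 in stages 3, 4 and 7 (adjusted over the 7 stages). In stages 1, 2, 5 and 6 they were 0.233, 0.0544, 0.0958 and 0.595. The binomial intervals therefore understate the error of the arm share.

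Between early and late libraries no change of the arm share was called. The mean 5p share was 3.32% ± 2.68 early and 2.54% ± 1.13 late (SD, n = 6), a difference of -0.78 percentage points (exact two-sided permutation test over libraries, p = 0.524, adjusted p = 0.905 over 38 hairpins). Leaving out 1 library moved the difference between -1.36 (without stage 1 replicate 2) and -0.057 (without stage 2 replicate 1), so its size is not resolved, and without stage 7 replicate 2 it was -0.45. The smallest p this test allows is 0.00216, which adjusts to 0.0823 when only 1 of the 38 hairpins reaches it, so no hairpin could be called on its own. The test also treats the libraries as exchangeable although those of a stage resemble each other. Pooled over libraries, 138 5p reads beside 3858 3p reads early (3.45%, interval 2.91% to 4.07%) and 1029 beside 43312 late (2.32%, interval 2.18% to 2.47%) would look distinct, but those intervals leave out the spread between libraries. edgeR's test of unequal change between the arms of a hairpin (diffSpliceDGE) gave a late minus early difference of -0.06 in the log2 ratio of 5p to 3p (adjusted p = 0.906 over 15 hairpins). A p that misses the threshold does not show that the arms kept the same ratio.

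The same values were computed for other hairpins. The permutation test called 0% of the 38 hairpins with at least 100 reads over both arms, a count that its smallest p nearly fixes, and 7 of them had an unadjusted p below the threshold. On the log2 ratio of 5p to 3p, with 0.5 added to each count, the same test called 17 of 38, with -0.06 for bantam (adjusted p = 0.929), and diffSpliceDGE called 3 of 15. Where an arm has no reads, that ratio moves with the depth of the other arm by construction. By difference of the 5p share bantam ranked 21 of the 38 by size of change. The largest changes were in miR-998 (61.5% ± 30.0 to 81.8% ± 11.8), miR-9b (66.1% ± 3.43 to 46.3% ± 11.0), miR-14 (5.45% ± 6.43 to 25.0% ± 17.7), miR-11 (19.7% ± 7.72 to 9.00% ± 3.09) and miR-133 (0% to 8.94% ± 6.44). Their unadjusted p-values were 0.193, 0.00433, 0.0173, 0.0152 and 0.0152 in the same exact permutation test. The 1 hairpin at the smallest p the test allows was miR-10 (92.1% ± 1.35 to 88.8% ± 1.25). The 2 nearest to bantam were miR-279 (-0.69 percentage points) and miR-12 (-0.42). Where 1 arm is absent, as in early miR-133, the share says only that no read of it was counted.

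**Figure D4:**
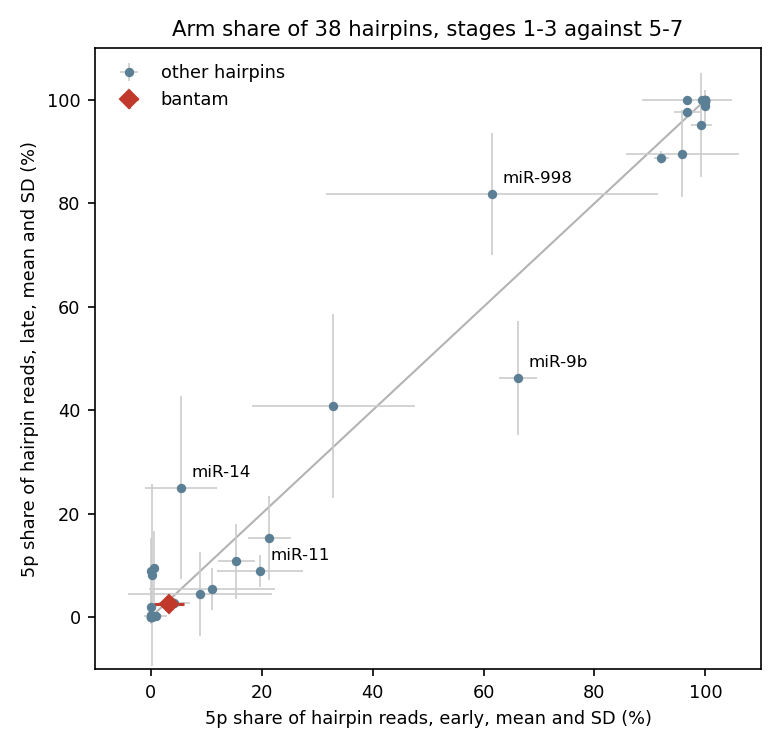
Mean 5p share of the reads of each of 38 hairpins in the 6 early libraries (horizontal, %) and the 6 late libraries (vertical, %), with bars of 1 SD and the line of equal shares. bantam (red diamond) lies in the lower left corner at 3.32% and 2.54%, and the 4 named hairpins lie further from the line.

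bantam was then set beside other fly miRNAs known to act on growth or cell survival. The list has 13 hairpin names, and 15 of its 31 arms in the table could be tested. Late against early, 6 of the 15 were called higher, 3 lower and 6 did not pass (edgeR), with a median log2 fold change of 0.36. That median is the fitted value of miR-263a-3p, which did not pass (0.36 ± 0.694, SE, edgeR adjusted p = 0.649). The mean CPM of miR-263a-3p was lower late (211 early, 79.2 late, libraries overlapping), so the median gives no direction for the list. Among all 85 arms 50.6% were called higher and 29.4% lower, and the median was 0.86. The counts moved with the scaling. With library size alone 9 of the 15 were called higher and 1 lower, and with DESeq2 size factors 8 and 2. Among arms averaging 50 or more counts, 10 of the list could be tested, and 4 were called higher and 5 lower.

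The arms called higher came from miR-8, miR-263a, miR-263b and miR-14. miR-8-3p and miR-8-5p, from a hairpin that promotes body growth through the fat body, rose by 4.31 ± 0.246 and 3.59 ± 0.466 on the log2 scale (edgeR adjusted p = 8.92e-12 and 8.26e-07). miR-263a-5p and miR-263b-5p, which protect bristle cells by repressing hid, rose by 1.72 ± 0.173 and 4.58 ± 0.795 (adjusted p = 3.38e-08 and 3.86e-05). Most of the rise of miR-263a-5p lay within the early stages. Its log2 CPM was 12.4 in both libraries of stage 1 and 15.9 in both of stage 3, against 15.9 to 16.6 late. Without stage 1 replicate 1 miR-8-5p had 5.45, and without stage 3 replicate 2 miR-263b-5p had 5.88. miR-14, a suppressor of cell death, rose in both arms, by 0.86 ± 0.243 for miR-14-3p and 4.96 ± 0.573 for miR-14-5p (adjusted p = 0.00293 and 2.79e-07). The call of miR-14-3p ended among arms averaging 50 or more counts (0.10).

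The arms called lower were miR-6-3p, miR-11-5p and miR-2b-3p. miR-6-3p changed by -2.31 ± 0.232 (edgeR adjusted p = 3.38e-08), miR-11-5p by -1.53 ± 0.284 (adjusted p = 6.21e-05) and miR-2b-3p by -0.67 ± 0.233 (adjusted p = 0.0116). miR-6-3p and miR-2b-3p carry the K-box seed, through which miRNAs of their family repress proapoptotic genes, and miR-11-5p is a passenger arm without it. miR-11-5p had -0.55 and no call with library size alone. miR-2b-3p did not pass with DESeq2 size factors (-0.23), DESeq2 (-0.23), no filter (-0.33) or stages 6 and 7 against 1 and 2 (-0.53), and had 0.30 with library size alone. The 3 other tested arms with that seed did not pass. They were miR-11-3p at -0.23 ± 0.209 (edgeR adjusted p = 0.315), miR-13b-3p at -0.36 ± 0.297 (adjusted p = 0.279) and miR-2a-3p at 0.045 ± 0.255 (adjusted p = 0.882).

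For miR-11-3p and miR-2a-3p the call and its direction depended on the scaling. miR-11-3p was called higher with library size alone (0.75, edgeR adjusted p = 0.00123) and lower among arms averaging 50 or more counts (-0.99, adjusted p = 0.000166). It was also called lower without stage 7 replicate 2 (-0.41, adjusted p = 0.0363) and without stage 4 replicate 1 as well (-0.58, adjusted p = 0.00606). miR-2a-3p was called higher with library size alone (1.01, edgeR adjusted p = 0.00114), with DESeq2 size factors (0.49, adjusted p = 0.0481) and with DESeq2 (0.49, adjusted p = 0.0179), and lower among arms averaging 50 or more counts (-0.70, adjusted p = 0.0252). miR-13b-3p, at -0.36 on the TMM scale, turned to 0.60 with library size alone, without a call. The 3 remaining arms not past the threshold were miR-2b-2-5p (-0.91), miR-263a-3p (0.36) and miR-2c-5p (0.997). miR-2c-5p was called higher with library size alone (1.95), DESeq2 size factors (1.43), DESeq2 (1.47) and no filter (1.32). With 1 of stage 3 replicate 2, stage 6 replicate 2 or stage 7 replicate 1 left out, its value was 1.12 to 1.29. miR-2b-2-5p was called lower without stage 5 replicate 1 (-1.52). miR-278, which acts on growth and metabolism, had 22 counts of the 3p and 37 of the 5p arm and was not tested. The members of the miR-2 family share sequence, and the division of reads between them is uncertain.

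**Figure D5:**
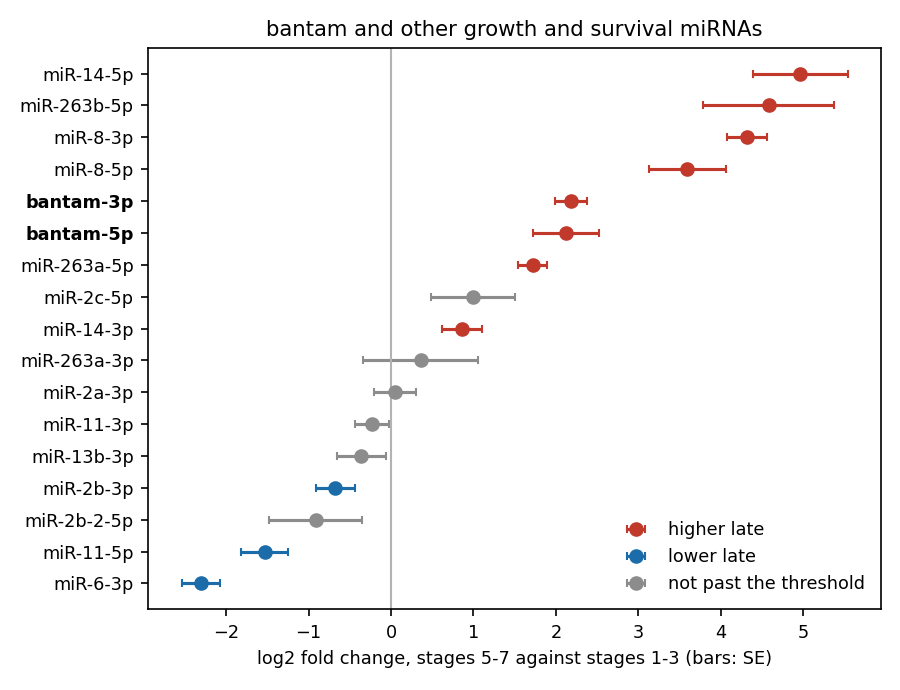
log2 fold change (edgeR, TMM scale) of stages 5 to 7 against stages 1 to 3 for both bantam arms and the 15 tested arms of the growth and survival list, with bars of 1 SE. bantam-3p and bantam-5p, at 2.19 and 2.13, lie below 4 arms of miR-14, miR-263b and miR-8 and above the other arms; miR-6-3p, miR-11-5p and miR-2b-3p are the arms called lower, of which miR-2b-3p is positive with library size alone.

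Arms with a similar course were sought by Pearson's correlation of stage means of log2 CPM with bantam-3p over 7 stages, given as a description, since the stages share libraries and scaling. Among 84 other tested arms the highest values were those of miR-927-3p (0.98), miR-87-5p (0.98), miR-956-3p (0.98), miR-993-3p (0.98) and miR-263b-5p (0.98). miR-927-3p and miR-87-5p stood in all of stages 1 to 3, miR-956-3p in stages 1 and 3, and miR-263b-5p in stage 1, at the lowest log2 level the scale gives (5.50). A flat start and a rise from stage 4 are then enough for a high value. The set of 5 is unstable: 1 of the 5 stayed with Spearman's correlation or DESeq2 size factors, and 2 stayed over the 14 libraries or with library size alone. The lowest values were those of miR-286-3p (-0.99) and miR-312-3p (-0.997), both among the leading arms of early embryos. bantam-5p was at place 34 with 0.76 over the stages and 0.69 over the 14 libraries.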

How the data were processed

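Small RNA of 14 embryo libraries was measured as reads per mature miRNA arm. The authors deposited raw counts (whole numbers, library totals unequal). The tools Bowtie and HTSeq and the build dm6 are named in the submitters' processing notes, without versions. The miRNA annotation and the handling of reads with several matching loci are unstated in the sources used. Stages came from the labels, which number no replicates, so replicates were numbered in accession order.

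The tests were run with edgeR 4.0.16 under R 4.3.3. Of 466 arms, 85 passed filterByExpr by stage and held at least 99.4% of each library. 1 quasi-likelihood model (TMM, 1 coefficient per stage, 7 residual degrees of freedom) gave all comparisons. log2 CPM used a prior count of 2. Alternatives used DESeq2 1.42.0, other scalings and filters, and the same 85 arms with each library left out in turn. The lone library of a stage is then taken to have the spread of the others. Leaving out both stage 4 replicate 1 and stage 7 replicate 2 was chosen after seeing the data. Intervals are exact (Clopper-Pearson, 95%). The arm share was tested for hairpins with both arms, at least 100 reads and 1 read in every early and late library. The code was tested on simulated data.

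The members and lists were chosen with earlier results of these data known. Besides bantam, the text names the arms directly above and below bantam-3p by mean share and all arms above it. For the arm share it names the 5 hairpins with the largest change and the 2 nearest to bantam. For likeness it names the 5 most and 2 least similar arms, and of the growth list the called arms and the most abundant other. miR-10 in the arm share, miR-2a-3p, miR-13b-3p, miR-2b-2-5p, miR-2c-5p, miR-263a-3p and miR-278 are outside this rule. They were named after their values were seen. Positions come from Ensembl and RefSeq annotations of dm6. Figures were drawn with matplotlib 3.10.9.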

Additional observations from a re-analysis of the deposited data

Results flagged for a closer look

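Each of 7 measures of bantam was checked in the early and in the late libraries for a library far from the other 5, and 2 stood out. How often such groups would do so by chance is not known here, since each mixes several stages and the measures depend on each other. The rank of bantam-3p in stage 3 replicate 2 was 13, while the other early libraries had ranks from 5 to 7. The rank of bantam-5p in stage 7 replicate 2 was 43, while the other late libraries had ranks from 18 to 23. In that library bantam-3p was also at its lowest late share and miR-286-3p at its highest late share, and their part in the rank was not tested.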

How the results depend on the processing

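No paired analysis was possible because the labels give no replicate numbers. The late against early rises of both arms and their differences over all stages were called under all settings run. Values below are log2 fold changes unless stated. The causes of the changes were not tested.

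For bantam-3p, stage 2 against 1 had -0.22 with DESeq2 size factors and -0.22 with DESeq2. Stage 4 against 3 had 0.78 among arms averaging 50 or more counts. Stage 5 against 4 passed with DESeq2 size factors (1.14), DESeq2 (1.14), library size alone (1.13) and no filter (1.01). Stage 7 against 6 turned to 0.15 without a filter and to 0.097 without stage 4 replicate 1 and stage 7 replicate 2. For bantam-5p, stage 2 against 1 had 2.45 with DESeq2 size factors. Stage 3 against 2 passed at -1.75 without stage 4 replicate 1 and stage 7 replicate 2 and at -1.53 with the 2 stages alone. Stage 4 against 3 did not pass at 1.42 among arms averaging 50 or more counts or at 1.97 with the 2 stages alone, nor did stage 7 against 1 at 1.94 in the former setting.

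Leaving out 1 library at a time gave ranges for bantam-3p of 2.00 to 2.35 late against early, 3.49e-05 to 0.42 for stage 2 against 1, -0.85 to 0.018 for 3 against 2, 0.89 to 1.76 for 4 against 3, 0.73 to 0.996 for 5 against 4, 0.27 to 0.52 for 6 against 5, -0.45 to 0.12 for 7 against 6 and 1.83 to 2.52 for 7 against 1. For bantam-5p the ranges in the same order were 1.75 to 2.50, 2.22 to 4.01, -2.37 to -0.82, 1.35 to 2.85, 0.27 to 1.26, -0.51 to 0.027, -1.95 to -0.20 and 1.78 to 4.05. The difference of the 5p share ran from -1.36 to -0.057 percentage points.

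The number of arms called (either direction) was 33 of 39 over all stages, 34 late against early, 9 for stage 2 against 1, 7 for 5 against 4 and 29 for 7 against 1 among arms averaging 50 or more counts, against 69, 68, 15, 12 and 65. With the 2 stages alone it was 32 for stage 2 against 1 and 11 for 3 against 2. For 3 against 2, against 0, it was 1 without a filter, 2 with DESeq2 and 9 without stage 4 replicate 1 and stage 7 replicate 2, and for 6 against 5, against 0, 1 without a filter and 1 without these libraries. With 1 library left out it ran from 63 to 72 over all stages, 8 to 16 for 2 against 1, 0 to 1 for 3 against 2, 19 to 35 for 4 against 3, 1 to 17 for 5 against 4, 0 to 1 for 6 against 5 and 0 to 1 for 7 against 6. In the growth and survival list 1 arm was called lower with library size alone and 5 among arms averaging 50 or more counts, against 3. Hairpins with a changed arm share were 17 with a log2 ratio and 0.5 added to each count, 3 with diffSpliceDGE, 2 without stage 4 replicate 1 and stage 7 replicate 2, and 0 to 2 with 1 library left out, against 0. Where an arm has no reads the log2 ratio moves with the depth of the other arm by construction.

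The share of bantam-3p without miR-286-3p in the total was 4.69%, 5.35%, 3.76%, 10.5%, 18.8% and 20.5% in stages 1 to 6. It was 22.5% and 15.1% in stage 7 replicates 1 and 2. Per TMM effective size the share of bantam-3p was 2.60%, 3.04% and 2.38% in stages 1 to 3 and 10.4% and 13.6% in stages 5 and 6. That of bantam-5p was 0.0432%, 0.330%, 0.111%, 0.735% and 0.514% in stages 1, 2, 3, 5 and 6 without miR-286-3p, and 0.411% and 0.342% in stages 5 and 6 per TMM effective size. The mean rank of bantam-3p among 3p arms alone was 5, 4.5 and 2.5 in stages 1, 2 and 4. That of bantam-5p among 5p arms alone was 22, 11.5, 19, 12.5, 8.5, 10 and 15 in stages 1 to 7. Of the 5 arms most like bantam-3p, 1 was shared with Spearman's correlation, 2 over 14 libraries, 2 with library size alone and 1 with DESeq2 size factors. With 2 to 60 counts of bantam-5p in early libraries, depth limits its early level and arm share.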
